A study of Rattus norvegicus with 30 samples.

Results

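Ephb1 encodes EphB1, a receptor tyrosine kinase of the Eph family that binds membrane-bound ephrin-B ligands on neighbouring cells. Eph receptors and ephrins guide growing axons and help form and shape excitatory synapses, where EphB receptors interact with NMDA receptors. DNAm within a gene body lies on the transcribed stretch, much of it intronic in a long gene such as Ephb1, and meDIP-seq measures it by pulling down methylated fragments with an antibody and sequencing them, so that a peak marks a stretch where such fragments pile up.

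The stretch of Ephb1 described here is chr8:110450577-110799227 of the rat build Rn6, 348.651 kb between 2 intronic sites of the gene. Its members are the 86 merged peak regions that overlap the stretch and were called in at least 2 of the 30 libraries, out of 432103 such regions on the autosomes. The 2 intronic sites at the ends were chosen because the study called them as differing between prenatal groups in these same animals, so their group values are a description with no test. The paper lists Ephb1 among genes with multiple sex-concordant PAE-specific sites. It called a site PAE-specific where PAE differed from both CON and PF while PF and CON did not differ. The other 84 members lay between them, and 73 of those were called in at least 3 libraries and were tested. Another 23 merged regions of the stretch were called in 1 library and are no members. No genome or annotation of Rn6 was used here, so exons and introns between the end sites were not placed and no DNA sequence is given. In a later assembly of the rat genome, GRCr8, the genes next to Ephb1 are Ppp2r3a and Ky.

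The libraries came from the PFC of Sprague-Dawley rats at postnatal day 22, with 10 libraries per prenatal group, 5 labelled female and 5 labelled male, from 5 dams per group. Dams of prenatal alcohol exposed (PAE) animals received ethanol in a liquid diet, at 36% of calories and 6.37% v/v, from gestation day 1 to day 21. Dams of pair-fed (PF) animals received the liquid diet with maltose-dextrin in place of ethanol, in the amount eaten by a PAE partner, and dams of control (CON) animals received a pelleted diet without restriction. PF and PAE therefore share a liquid diet and reduced intake that CON lacks, and PF carries a restricted ration of its own. The tissue is bulk PFC, in which fewer cells of a type with methylated DNA and less methylated DNA per cell cannot be told apart. Peaks give no expression markers, so the tissue label could not be checked.

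Each peak is described by its normalized height, its highest pileup of fragments scaled to 1000000 filtered fragments of the library. A library without a called peak at a region, or with a lower one, was given a floor of 0.438, since coverage under the calling threshold was not analysed here. The libraries held 11548314 to 16555049 filtered fragments and 99279 to 194128 called autosomal regions. The 5 sequencing chips held the groups unevenly, with no PF library on one and no PAE library on another. On 1 chip, with 2 CON, 1 PF and 3 PAE libraries, the median was 172116 called regions, against 127078 to 144618 on the others. The labelled sex also did not match the sex chromosomes throughout. In 23 libraries at most 1.15% of peaks lay on chromosome X and at least 38 peaks on Y, in the other 7 at least 2.65% and at most 11, and 5 of these 7 were labelled male. Only 2 of the 7 were labelled female, so most libraries labelled female were among the 23 with many Y peaks. Results by labelled sex are given with that limit, and the share of peaks on chromosome X replaced labelled sex in an alternative fit.

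The Ephb1 stretch was marked by many short, intermittently called peaks rather than by a continuous block. Member length ran from 280 to 1790 bp around a median of 546 bp, and the typical member was called in 6 libraries (median). Of the 86 members, 11 were called in 2 libraries, 27 in 3 to 5, 23 in 6 to 10, 16 in 11 to 19, 8 in 20 to 29, and 1 in all 30. Neighbouring members lay 0.181 to 12.918 kb apart, with a median of 2.975 kb, and together they covered 50.0 kb, or 14.4% of the stretch. The longest gap ran from 110728937 to 110741856. In density the stretch held 24.7 members per 100 kb, between the 18.6 and 26.7 of equally long windows just before and just after it and above the 16.5 of all autosomes. A smaller share of its regions was called broadly, with 10.5% in at least 20 libraries against 18.5% and 14.0% in the adjoining windows and 15.1% over the autosomes. Both end sites are intronic, so those windows hold further parts of Ephb1, and how far the gene runs into them was not determined. At the edge of the membership rule, the 11 members called in 2 libraries reached a highest normalized height of 0.573 to 1.15, and the 23 regions called in 1 library reached 0.407 to 1.35, so the heights just inside and just outside the rule overlapped.

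**Figure D1:**
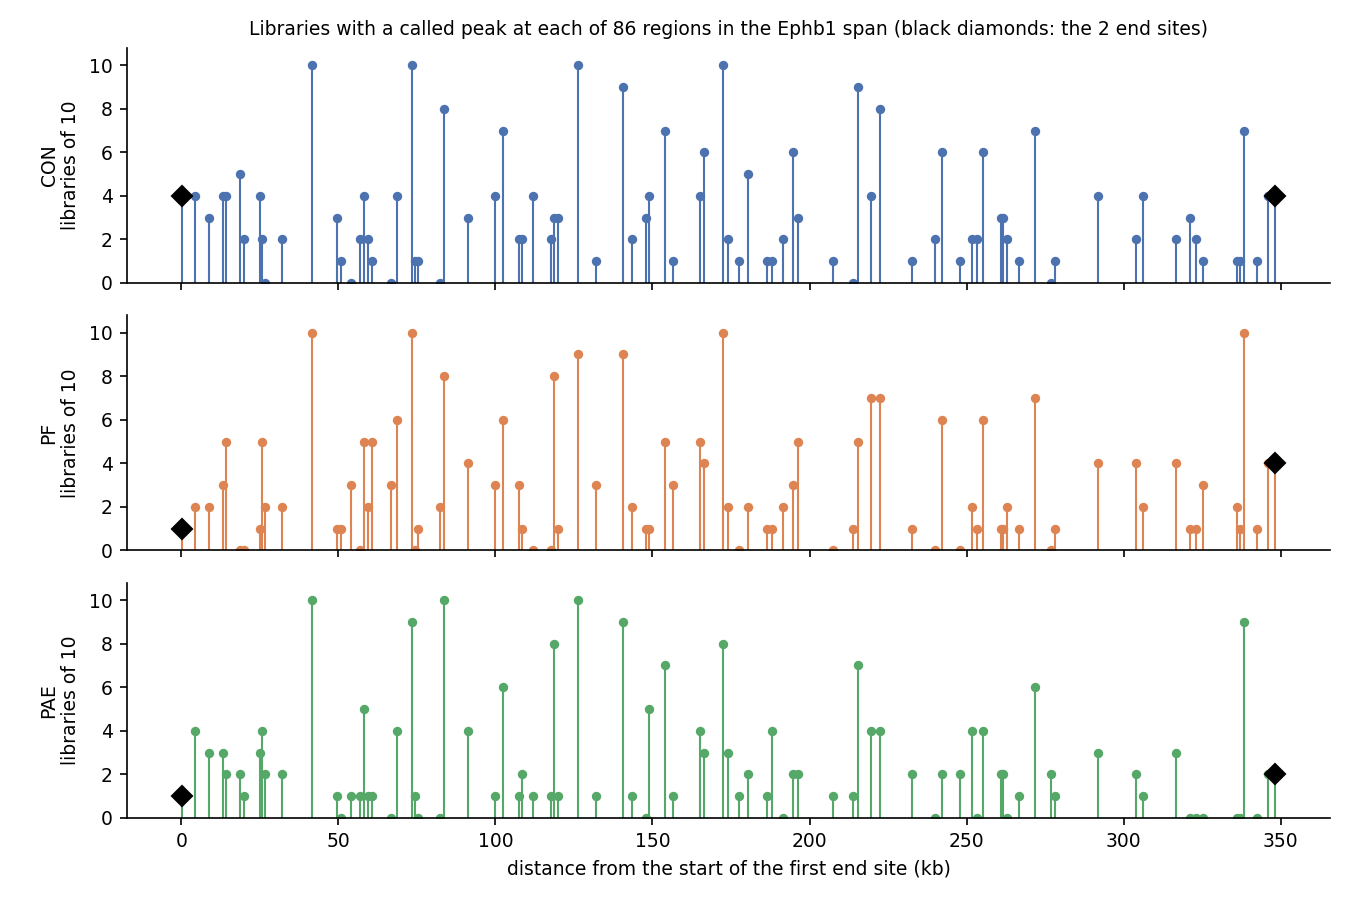
Number of libraries, of 10 in each group, with a called peak at each of the 86 members, against the distance of the member from the start of the first end site in kb. Black diamonds mark the 2 end sites, called in 4 CON, 1 PF and 1 PAE libraries and in 4 CON, 4 PF and 2 PAE libraries. The tallest lines, at 10 libraries, stand at 4 members in CON, 4 in PF and 3 in PAE. Only 1 member, called in all 30 libraries, reaches 10 in each of the 3 groups.

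The first end site, chr8:110450577-110450980, was 404 bp long and was called in 6 libraries, 4 CON, 1 PF and 1 PAE. The 4 CON heights were 0.776, 1.29, 1.37 and 1.39, the PF height was 0.906 and the PAE height was 0.787. All other libraries were at the floor, so the lowest and the median height were 0.438 in each group and the groups overlapped there, while 3 of the 4 CON heights lay above the highest PF and PAE heights. Mean heights were 0.744 ± 0.429 in CON, 0.485 ± 0.148 in PF and 0.473 ± 0.110 in PAE (SD, n = 10). With labelled sex and chip in the model, the log2 difference of normalized height was -0.45 for PAE minus CON, -0.56 for PF minus CON and 0.11 for PAE minus PF. Without the chip term the last of these was -0.020, so its direction depended on that term. In these heights PF and PAE both lay below CON with means close to each other. That is not the PAE-specific pattern by which the study called the site. The study modelled the reads within each peak, which were not used here.

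The second end site, chr8:110798278-110799227, was 950 bp long and was called in 10 libraries, 4 CON, 4 PF and 2 PAE. The 4 CON heights were 1.87, 2.17, 2.23 and 2.34. In PF the called heights were 1.02, 1.10, 1.20 and 2.47, and in PAE they were 0.859 and 1.57. The CON peaks were therefore mostly taller than the PF peaks, although the tallest single peak of this site was in a PF library. Mean heights were 1.12 ± 0.892 in CON, 0.843 ± 0.654 in PF and 0.593 ± 0.366 in PAE (SD, n = 10), and the fitted log2 differences were -0.67 for PAE minus CON, -0.39 for PAE minus PF and -0.28 for PF minus CON. The direction of PF minus CON turned on 3 of the 4 chips with both groups, at 0.67, 0.44 and 0.29, in libraries labelled female, at 0.64, and with peaks covering at least 50% of the region, at 0.014.

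Calls at the second end site fell together with labelled sex, chip and depth of calling. Of its 10 calls, 9 were in libraries labelled female and 1 was in a library labelled male. By the sex chromosomes, only PF replicate 5 of these was among the 7 libraries with more peaks on X and few on Y. On the chip with the most called regions, 5 of 6 libraries carried the peak, 2 of 2 CON, 1 of 1 PF and 2 of 3 PAE, and without that chip PAE minus CON was -0.37 on the log2 scale. Libraries with the peak had a median of 149502 called autosomal regions and those without it 128093. At the first end site 4 of 6 calls were in libraries labelled female, and the medians were 144958 and 129222. The part of labelled sex, chip and depth in the group values was not tested. Both end sites were called in 4 libraries, 3 CON and 1 PAE, and either one in 12, with a Spearman rho of 0.41 between their heights over the 30 libraries, which share chips and depth.

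The peaks directly beside the end sites were called in up to 10 libraries, and only the inner neighbour of the second end site had the call counts of its end site. Outside the first end site, a region 2.328 kb away was called in 1 CON, 2 PF and 2 PAE libraries, and inside it, a region 1.528 kb away was called in a single PF library. The next member inward, chr8:110454870-110455175, was called in 4 CON, 2 PF and 4 PAE libraries, at heights up to 1.55 in CON, 1.46 in PF and 1.44 in PAE. Its log2 difference was 0.11 ± 0.34 (SE) for PAE minus CON and 0.53 ± 0.34 for PAE minus PF, with adjusted p-values of 0.954 and 0.988 in limma. At the other end, chr8:110796233-110796613 lay 1.664 kb inward and was called in 4 CON, 4 PF and 2 PAE libraries, the same counts as the end site itself. Most of these libraries were not the same, since only CON replicates 1 and 2 and PAE replicate 2 carried both peaks. The highest heights of this inner neighbour were 1.80 in CON, 1.42 in PF and 1.84 in PAE, and PAE minus CON came to -0.20 ± 0.34 on the log2 scale (adjusted p = 0.908 in limma). On the outer side a region 1.773 kb away was called in 1 library of each group.

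**Figure D2:**
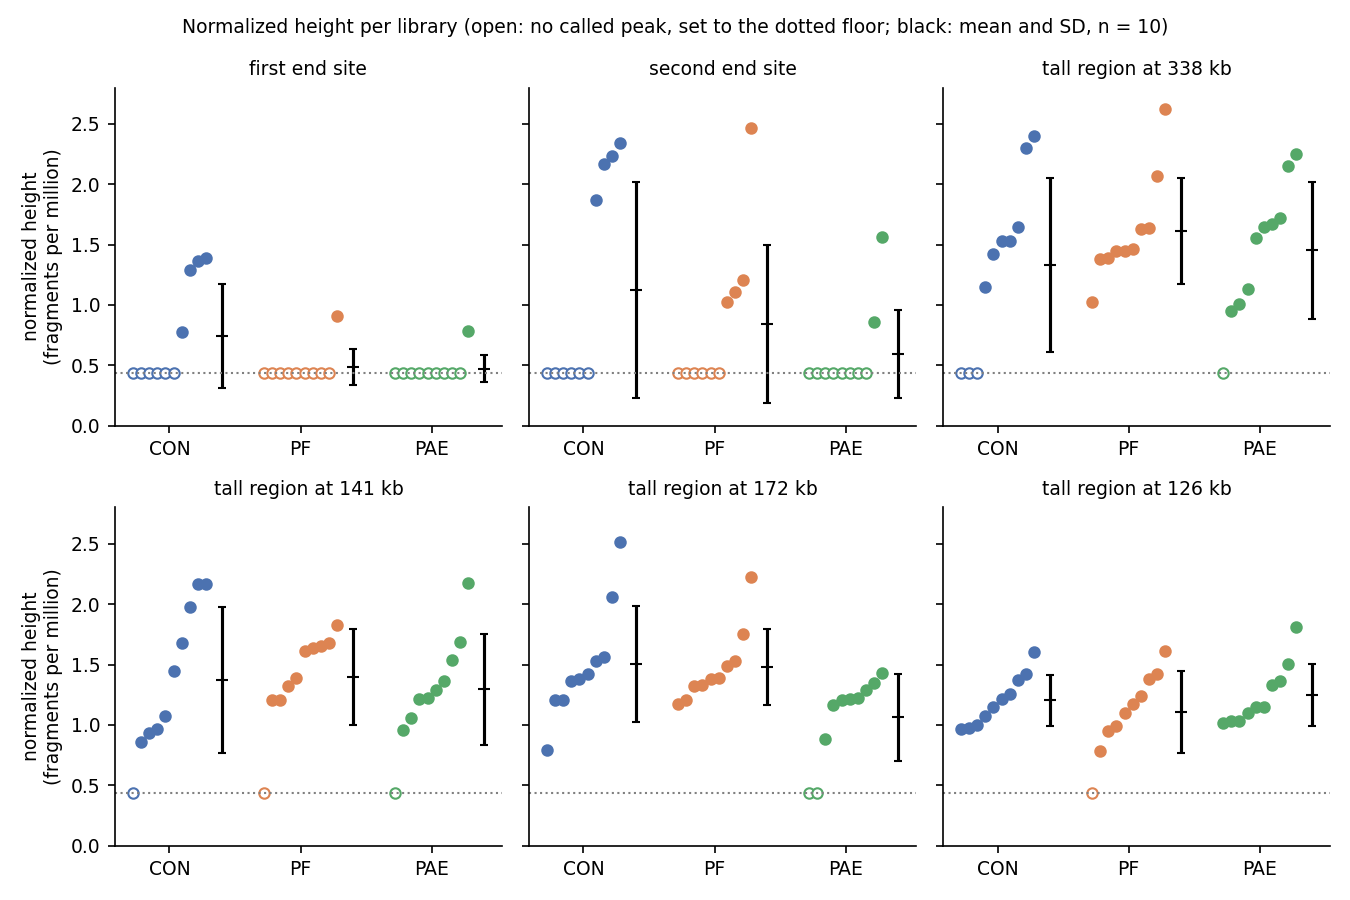
Normalized height, in fragments per 1000000 filtered fragments, of each library by group at the 2 end sites and at the 4 members with the highest mean height (distance from the start of the first end site in the panel titles). Filled points are called peaks, open points are libraries without a called peak, set to the dotted floor of 0.438, and black bars are the mean and SD of 10 libraries. At the end sites most libraries of every group sit at the floor, while at the tall members most libraries have a peak and the 3 groups overlap.

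The tall, broadly called members between the end sites formed a set of recurring DNAm peaks present in every group. The longest member, chr8:110491218-110493007, was 1790 bp long and was the 1 member called in all 30 libraries. Its lowest, median and highest heights were 0.716, 1.05 and 1.56 in CON, 0.728, 1.10 and 1.45 in PF, and 0.664, 0.817 and 1.22 in PAE. The PAE heights were lower on average but lay largely within the range of the other groups. Their mean was 0.876 ± 0.201 against 1.10 ± 0.240 in CON and 1.10 ± 0.211 in PF (SD, n = 10). The log2 difference was -0.26 ± 0.17 (SE) from CON and from PF alike. In limma the unadjusted p-values were 0.135 and 0.145 and the adjusted p-values 0.726 and 0.988.

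The highest mean height belonged to chr8:110788432-110788982, 338 kb into the stretch and called in 26 libraries. CON heights ran from the floor of 0.438 through a median of 1.47 to 2.40, PF heights from 1.02 through 1.46 to 2.63, and PAE heights from 0.438 through 1.60 to 2.25. All 10 PF libraries had this peak, and the 4 libraries without it were 3 CON and 1 PAE. Its log2 difference for PAE minus CON was 0.12 ± 0.28 (SE, adjusted p = 0.935 in limma). Next came chr8:110590899-110591586, called in 9 libraries of each group, with medians of 1.26 in CON, 1.50 in PF and 1.25 in PAE and highest values of 2.17, 1.83 and 2.18. The PAE and CON means there differed by a log2 of -0.01 ± 0.26 (adjusted p = 0.996 in limma).

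At chr8:110622443-110623365, the third tallest member, PAE heights were lower on average. Heights ran from 0.788 through a median of 1.40 to 2.52 in CON, from 1.17 through 1.38 to 2.23 in PF, and from 0.438 through 1.21 to 1.43 in PAE. All CON and PF libraries had the peak, both libraries without it were PAE, and the highest PAE value lay near the CON and PF medians. Both libraries without the peak were labelled male. They had 104843 and 111486 called autosomal regions, against a median of 132906 in libraries with it. The part of depth here was not tested. The log2 difference was -0.55 ± 0.22 (SE) from CON and -0.46 ± 0.22 from PF, with unadjusted p-values of 0.0180 and 0.0465 and adjusted p-values of 0.661 and 0.988 in limma. Without the chip with the most called regions these differences were -0.39 and -0.29. The next members by mean height did not repeat the pattern. At chr8:110576556-110577356, called in 29 libraries, PAE heights ran from 1.02 through 1.15 to 1.81, against 0.963 through 1.18 to 1.61 in CON and 0.438 through 1.13 to 1.61 in PF. The log2 difference there was 0.05 ± 0.19 for PAE minus CON and 0.40 ± 0.19 for PAE minus PF (unadjusted p = 0.0422, adjusted p = 0.988 in limma), and 1 PF library without a peak entered the latter. PAE minus PF was 0.22 with no chip term, 0.14 without the chip with the most called regions and 0.19 without PF replicate 4, the PF library on that chip and the one with no peak. At chr8:110533916-110534384 all 10 PAE libraries and 8 libraries of each other group had a peak, and the median heights were 1.02 in CON, 1.13 in PF and 1.05 in PAE.

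**Figure D3:**
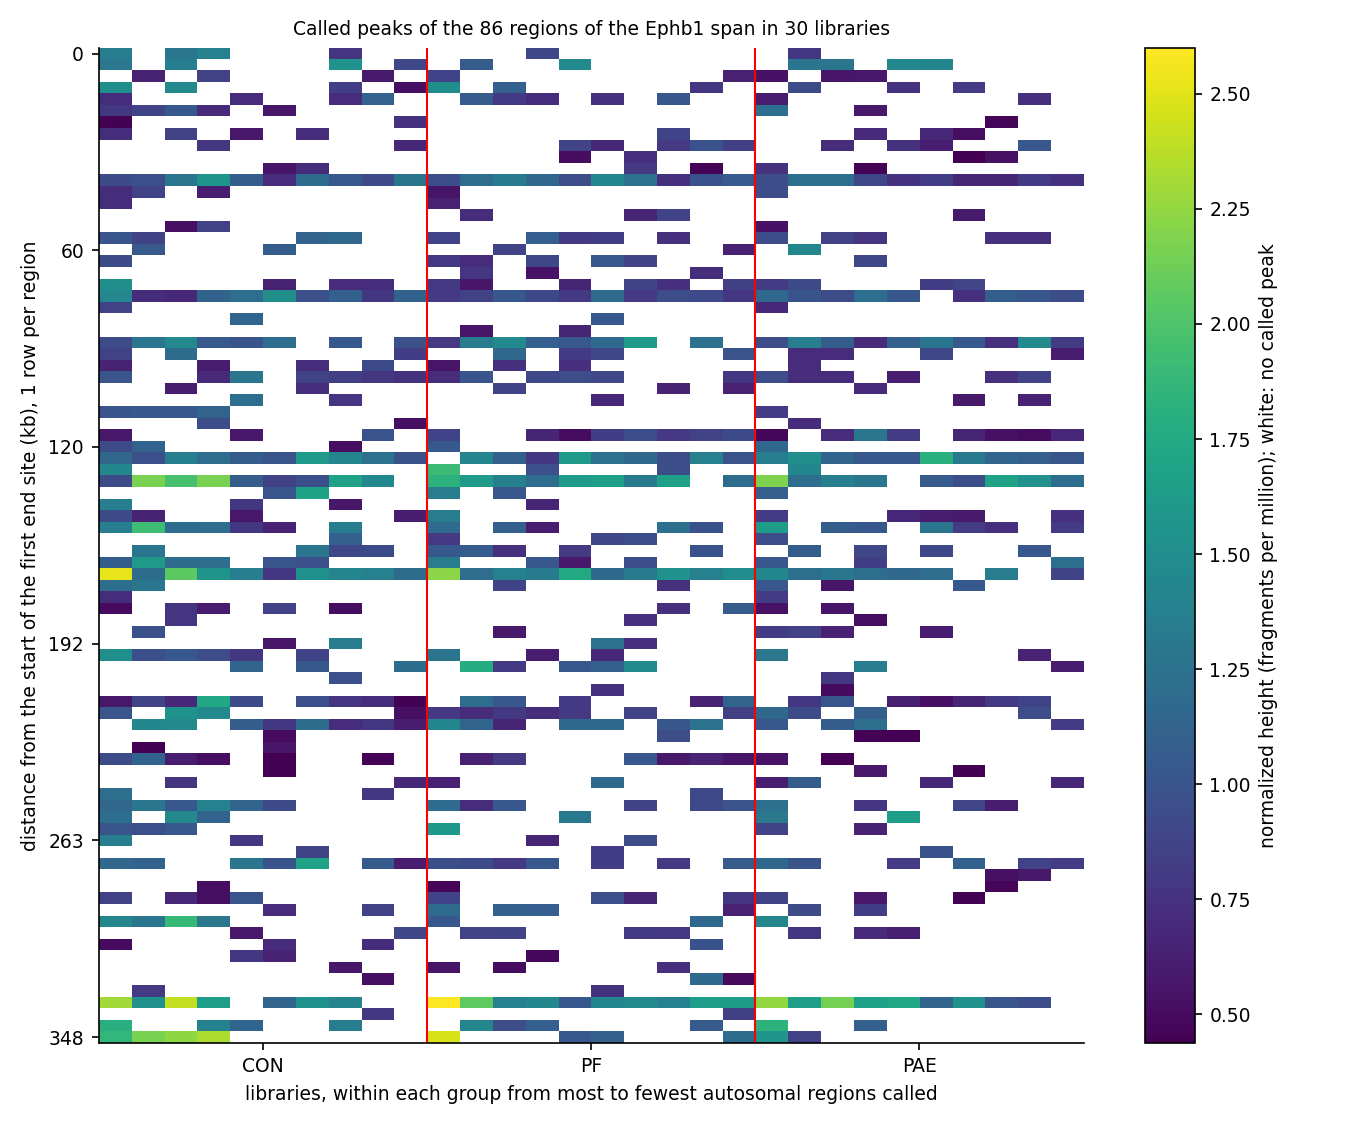
Normalized height, in fragments per 1000000 filtered fragments, of the 86 members (1 line of cells each, ordered along the stretch, distance in kb from the start of the first end site) in the 30 libraries, ordered within each group from most to fewest called autosomal regions. White means no called peak. A few members are filled across nearly all libraries, including the longest member, called in 30, and the libraries at the left of each group, with the most called regions, are the fullest.

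Comparing PAE with CON asks how alcohol exposure with its reduced intake differed from an undisturbed pregnancy. No member between the end sites differed at an FDR of 0.05 in limma, 0 of 73, where 1 of 352026 regions, 0.000284%, was called genome-wide. Fisher's exact test of called against uncalled libraries also called none. At an unadjusted p under 0.05, 5 members, or 6.85%, were lower in PAE animals, against 6.03% of all tested regions, and 0 were higher, against 1.34%. These shares are near those of the rest of the genome. By sign alone the fitted height was lower in PAE at 55 of the 73 members, 75.3% against 63.2% over all regions, with a median log2 difference of -0.11 against -0.05. Without the chip with the most called regions, 43 of 63 tested members, or 68.3%, were lower by sign, and at an unadjusted p under 0.05 there was 1 lower member and 1 higher. The share over all regions without that chip is not given here. Leaving out single libraries gave 1 to 8 lower members, and the 1 was reached without the CON library that had the most called regions. Shares over all regions are not given for those fits either, so these counts cannot be set against the shares of the main fit.

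The 5 members lower in PAE at an unadjusted p under 0.05 were spread over the middle and end of the stretch. At chr8:110645026-110645628, 6 CON libraries had a peak, at heights of 0.788 to 1.51, against 3 PF libraries, at 0.604, 0.690 and 1.27, and 2 PAE libraries, at 0.657 and 1.29. The ranges overlapped in all 3 groups. The log2 difference was -0.56 ± 0.20 (SE) for PAE minus CON and -0.44 ± 0.21 for PF minus CON, with unadjusted p-values of 0.00831 and 0.0429 and adjusted p-values of 0.661 and 0.773 in limma, so PF animals lay on the same side as PAE animals. The tall member chr8:110622443-110623365, given above, was also among the 5.

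At the remaining 3 a peak was called in few libraries, mostly of CON. The first and the third of them met the 3 libraries needed for a test only through CON. The 4 CON peaks of chr8:110562361-110563063 were 1.01 to 1.13 high, no PF library had one, and 1 PAE library had one of 0.817. At chr8:110756232-110757352 the 4 CON peaks were 1.28 to 1.89 high, against 1.03 and 1.18 in 2 PF libraries and 1.43 in 1 PAE library. At chr8:110598225-110598622 CON heights were 0.582, 0.788 and 1.37 in 3 libraries, 1 PF library had a peak of 0.664, and no PAE library had one. At the 3 members PAE minus CON was -0.38 ± 0.17, -0.52 ± 0.25 and -0.34 ± 0.16 on the log2 scale (SE), with adjusted p-values of 0.669, 0.676 and 0.670 in limma. Without the chip with the most called regions the second and the third were -0.27 and -0.17, the first was called in too few of the remaining libraries to be tested, and the third was -0.13 without the CON library that had the most called regions. As at the second end site, the peaks at the first and second of these 3 lay in libraries with many calls, a median of 170771 called autosomal regions with the peak and 129162 without it in both cases, and 4 of 5 and 6 of 7 of them were labelled female.

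Comparing PAE with PF sets alcohol exposure against reduced intake alone. Again 0 of the 73 members differed at an FDR of 0.05 in limma, as did 0% of all regions. At an unadjusted p under 0.05, 2 members, or 2.74%, were lower in PAE, against 2.95% of all tested regions, and 1, or 1.37%, was higher, against 1.51%. The fitted height was lower in PAE at 51 members, 69.9% against 56.4% over all regions, and the median log2 difference was -0.11 against -0.02. Beside the tall members above, chr8:110517141-110517686 was called in 3 PF libraries, at 0.544, 0.721 and 0.783, and in no library of the other groups. It passed the unadjusted threshold in both comparisons that involve PF, which share the PF libraries, with log2 differences of -0.19 ± 0.09 for PAE minus PF and 0.22 ± 0.09 for PF minus CON (SE), and adjusted p-values of 0.988 and 0.773 in limma. Its PF calls alone met the 3 libraries needed for a test, and both other groups were wholly at the floor. These 2 results are therefore no support for a difference of PF. At chr8:110511084-110511479, 5 PF libraries had peaks of 0.712 to 1.03, against 1 CON library at 0.935 and 1 PAE library at 0.901. This member too met the number needed for a test only through PF. PAE minus PF was -0.43 ± 0.21 on the log2 scale, with an unadjusted p of 0.0519 and an adjusted p of 0.988 in limma. A peak of chr8:110692514-110693135 was called in 6 CON, 6 PF and 2 PAE libraries, and its PAE heights, 0.430 and 0.545, lay below those in PF, 0.566 to 1.03, the lower one under the floor and set to it. The log2 difference of PAE minus PF was -0.39 ± 0.19 (unadjusted p = 0.0562, adjusted p = 0.988 in limma).

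Comparing PF with CON addresses food restriction without alcohol, with the change from pelleted to liquid diet included. At an FDR of 0.05 in limma 0 of 73 members and 0% of all regions differed. At an unadjusted p under 0.05, 3 members, or 4.11%, were lower in PF, against 4.39% of all regions, and 2, or 2.74%, were higher, against 2.06%. By sign 43 members were lower in PF, 58.9% against 57.6%, with a median log2 difference of -0.04 against -0.03. The member with the smallest p was chr8:110562361-110563063, described above, with no PF peak and a log2 difference of -0.52 ± 0.18 (SE, unadjusted p = 0.00758, adjusted p = 0.773 in limma). It met the 3 libraries needed for a test only through CON. At chr8:110468968-110469498, 5 CON libraries had peaks of 0.573 to 1.03, no PF library had one, and 2 PAE libraries had peaks of 0.579 and 1.23. This member also met the number needed for a test only through CON. A contrast in the other direction was at chr8:110569091-110569675, called in 3 CON, 8 PF and 8 PAE libraries, with median heights of 0.438, 0.814 and 0.601. The PF libraries were mostly above the CON libraries there, while the highest CON value, 0.988, exceeded all PF values. PF minus CON at these 2 members was -0.41 ± 0.19 and 0.46 ± 0.22 on the log2 scale (SE), with adjusted p-values of 0.773 for both in limma.

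**Figure D4:**
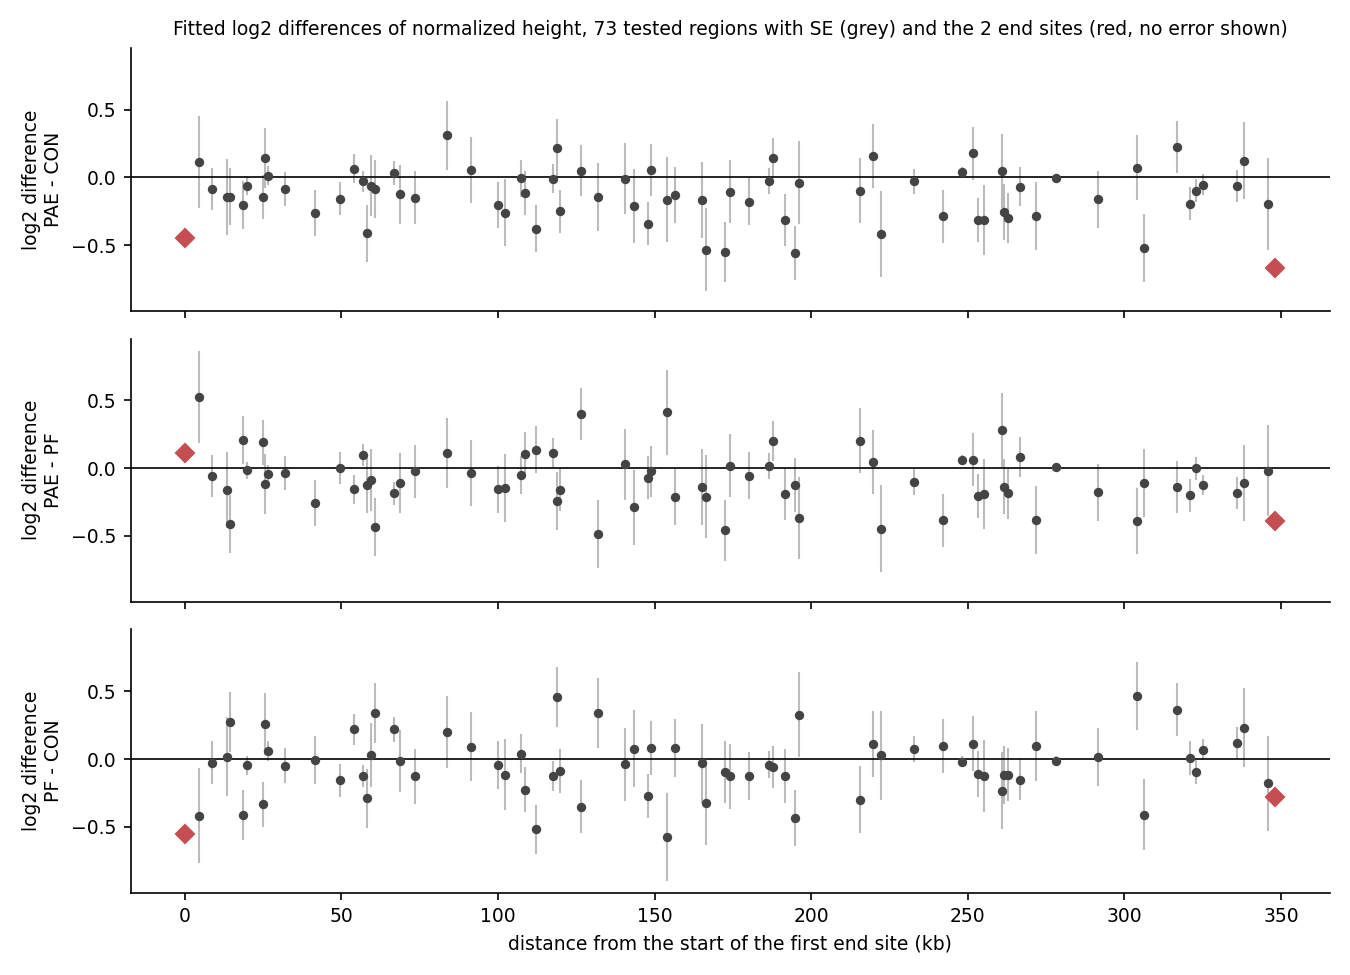
Fitted log2 difference of normalized height at the 73 tested members between the end sites (points, with 1 SE as grey lines) and at the 2 end sites (red diamonds, shown with no error because they were chosen by these contrasts), against distance from the start of the first end site in kb, for PAE minus CON, PAE minus PF and PF minus CON. The members lie between -0.58 and 0.53 in the 3 panels, 55, 51 and 43 of the 73 are below 0, and both end sites lie low in the panel of PAE minus CON.

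Members lower in PAE lay along the whole stretch. When it was divided into 4 sections of equal length, 15 of 21, 17 of 21, 11 of 16 and 12 of 15 tested members were lower in PAE than in CON, with median log2 differences of -0.09, -0.14, -0.07 and -0.10. Between PAE and PF, 15, 14, 9 and 13 were lower. Over all tested regions 63.2% were lower in PAE than in CON and 56.4% lower than in PF. The sections were not tested against these shares. The section nearest the second end site held 19 members, called in a median of 4 libraries, against 26, 21 and 20 members called in medians of 6.5, 8 and 6 libraries in the first 3 sections. The standard errors of the 73 members had a median of 0.20 for PAE minus CON and ranged from 0.03 to 0.34, and the smallest belonged to members at the floor in nearly all libraries.

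The called peaks were also counted at each member. PAE libraries had fewer calls than CON libraries at 46 of the 86 members, as many at 23 and more at 17, so that 53.5% were lower and 19.8% higher, against 44.8% and 30.1% of all autosomal regions. These 86 include the 2 end sites. Against PF, PAE had fewer calls at 43 members and more at 25, or 50.0% and 29.1%, where 40.4% of all regions had fewer and 32.6% more. PF had fewer than CON at 35 members and more at 23, or 40.7% and 26.7%, against 40.8% and 33.9% of all regions, so the share with fewer calls was that of the background. There were 15 members with no call in PAE, 11 with none in PF and 6 with none in CON, or 17.4%, 12.8% and 6.98%, against 16.4%, 15.0% and 12.5% of all regions. The largest difference in calls at 1 member was 5 libraries between CON and another group.

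Over the whole stretch CON libraries carried the most called members and PAE libraries the fewest, with wide overlap. CON libraries had 20 to 49 members called, with a median of 26.5 and a mean of 28.4 ± 8.46. In PF libraries 22 to 37 were called, with a median of 25 and a mean of 26.4 ± 4.22, and in PAE libraries 15 to 42, with a median of 19.5 and a mean of 22.7 ± 8.22 (SD, n = 10). Called peaks covered 11.5 ± 3.87 kb of the stretch in CON, 10.5 ± 2.35 kb in PF and 8.78 ± 3.92 kb in PAE, and the mean height of the called members was 1.02 ± 0.148, 0.992 ± 0.0700 and 0.919 ± 0.0878 (SD, n = 10). Without the CON library with 49 members called, the difference in means between PAE and CON shrank to -3.41 members, and PF exceeded CON by 0.29. No test was made of these sums over the members.

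The number of members called followed the number of peaks called in the whole library. CON, PF and PAE libraries had means of 143060, 136484 and 128600 called autosomal regions. Per 10000 called autosomal regions, the members numbered 1.96 ± 0.269 in CON, 1.94 ± 0.200 in PF and 1.73 ± 0.312 in PAE (SD, n = 10), with overlapping ranges. The equally long windows beside the stretch were ordered in the same way, with means of 22.6, 21.0 and 18.0 called regions before it and 31.6, 28.3 and 26.1 after it. Within chips, PAE had fewer members called than CON on each of the 4 chips with both groups, with means of 16.0 against 22.3, 24.0 against 27.0, 20.3 against 21.0 and 28.7 against 40.0 members. Per 10000 called autosomal regions, the means in the same order were 1.42 against 1.81, 1.78 against 2.11, 1.69 against 1.63 and 1.95 against 2.17. On that scale PAE exceeded CON on the chip with 20.3 against 21.0 members. Between PF and CON the order differed by chip, with 24.5 against 27.0, 25 against 21.0, 27.0 against 29.7 and 37.0 against 40.0. Several of these cells hold a single library. The part of library-wide calling in the group values was not tested.

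**Figure D5:**
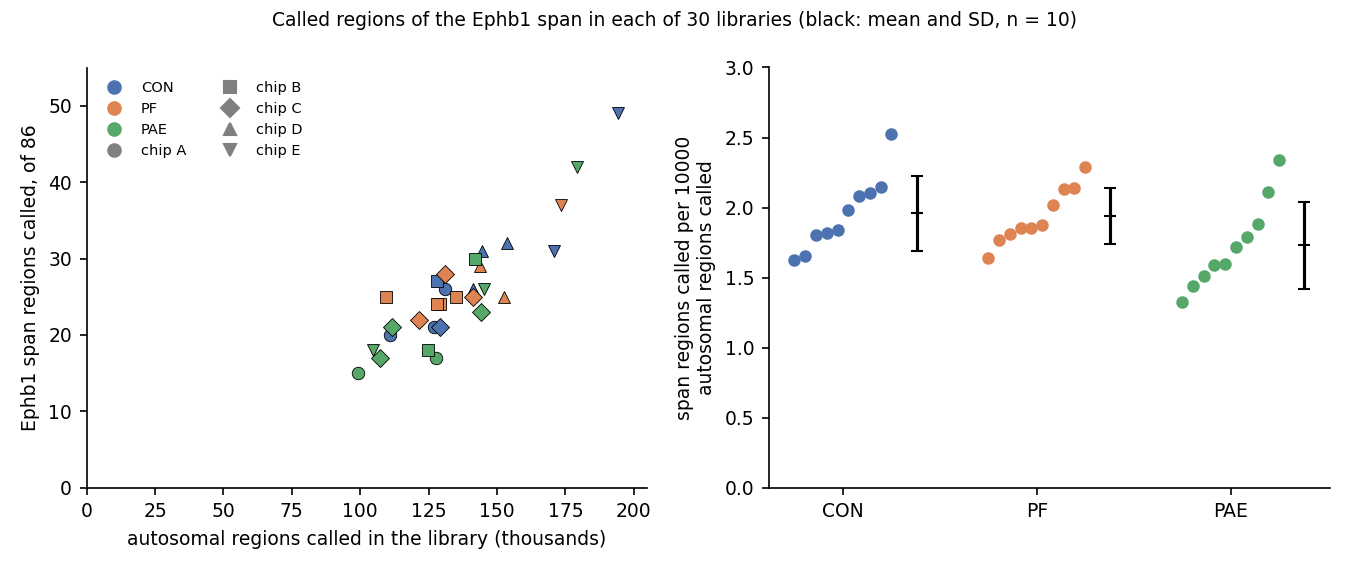
Left, number of the 86 members called in each of the 30 libraries against the number of autosomal regions called in that library (axis in units of 1000), with colour for group and symbol for sequencing chip. Right, members called per 10000 autosomal regions called, with the mean and SD of 10 libraries per group. Libraries with more called regions have more members called, from 15 to 49, and on the right the CON, PF and PAE libraries, with means of 1.96, 1.94 and 1.73, overlap.

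Littermates and other pairs of animals had similar overlaps of called members. The share of members called in both libraries among those called in either had a median of 33.3% in the 15 littermate pairs, with a range of 23.7% to 47.1%. It was 31.3% for pairs of a group from other dams and 31.4% for pairs from different groups. Over all autosomal regions the medians were 36.2%, 36.1% and 36.0%. These are descriptions, because each library enters many pairs.

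By labelled sex, no difference between the group comparisons passed the adjustment over all regions. The difference between labelled males and females in a group comparison was called at 0 of 73 members at an FDR of 0.05 in limma for each of the 3 comparisons, as for 0% of all regions. At an unadjusted p under 0.05, 1 member was higher and 0 were lower for PAE versus CON, against 2.67% and 2.2% of all regions. For PAE versus PF 1 was higher and 1 lower, against 1.38% and 1.8%, and for PF versus CON 2 were higher and 3 lower, against 2.74% and 2.03%. The single member for PAE versus CON, chr8:110669735-110670629, was named after its values were seen. Its peaks were called in 4 CON, 3 PF and 2 PAE libraries labelled female and in 0 CON, 4 PF and 2 PAE libraries labelled male, with a log2 difference (male minus female) of 1.13 ± 0.41 (SE), an unadjusted p of 0.00953 and an adjusted p of 0.942 in limma. With the share of peaks on chromosome X in place of labelled sex, 55 of 73 members were lower in PAE than in CON and none was called. With labelled sex in the fit, 63.2% of all regions were lower.

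Few other genes of ephrin signalling could be placed on this build. Of a list of 39 genes, 22 Eph receptors and ephrins and 17 of their partners and synaptic neighbours, 5 had a position in Rn6, taken from the positions of the study's own differing regions. Those positions were chosen on these samples and their group values are no independent evidence of a direction, and the other 34 genes were not analysed here. In addition to Ephb1 they were Epha4, a receptor for both ephrin classes, Grin1 and Grin2b, subunits of the NMDA receptor, and Grip1, a scaffold protein that binds AMPA receptors and EphB receptors. The region in Epha4 was called in 6 CON, 0 PF and 1 PAE libraries, that in Grin1 in 6 CON, 1 PF and 0 PAE, that in Grin2b in 2 CON, 0 PF and 2 PAE, and that in Grip1 in 5 CON, 1 PF and 3 PAE. Mean normalized heights were 0.677, 0.438 and 0.456 in CON, PF and PAE for Epha4, and 0.70, 0.458 and 0.438 for Grin1. In the same order they were 0.461, 0.438 and 0.497 for Grin2b, where PAE was the highest, and 0.693, 0.451 and 0.520 for Grip1.

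Among 524 tested regions that the study pairs with another gene, those most like each end site were sought by Spearman rho of height over the 30 libraries. All were chosen by the study on group differences in the same libraries, so likeness is built in, and no p is given. For the first end site they were regions in Flt1, Olfm2, Park2, Dohh and Macrod1, with rho from 0.742 to 0.745. They were called in 3 to 7 libraries, of which 3 to 5 also carried the first end site. For the second end site they included regions in Aqp12a and Ppp1r7, Cubn, Dysf and Cyp19a1, with rho from 0.818 to 0.821, called in 6 or 7 libraries, 6 of which also carried that site. Most libraries are at the floor at all of these regions, so the rho rests on a few shared calls. The study lists all the regions named here as shared between PAE and PF, whereas it lists Ephb1 as PAE-specific.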

How the data were processed

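MeDIP-seq peaks of 30 PFC libraries were used. Per the study's methods and the file headers, the authors mapped reads with BWA to Rn6, filtered them with SAMtools at a mapping quality of 10 and called peaks per animal with MACS2 (2.1.4 in the headers), using a q-value threshold of 0.05 and no control library. The deposited pileup is a coverage signal that the authors did not scale for library size. The deposited fold enrichment, a ratio to local background, was read for the members but not tested, and the deposited −log10 q-value set the stricter threshold of 0.01.

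Autosomal peaks overlapping by 1 bp were merged into 604866 regions. The log2 of the highest pileup per 1000000 filtered fragments, with a common floor of 0.438, was fitted with limma 3.58.1 (R 4.3.3) on the 352026 regions called in at least 3 libraries, with group, labelled sex and chip as terms, and for the sex difference their interaction. P-values were adjusted by Benjamini-Hochberg over all of them. The fit was also run on simulated heights, with changes placed only in regions called in at least 20 libraries. No chip, litter or sex effect was simulated. That run cannot show how well a change would be found at members called in few libraries. Tables and figures used Python 3.11.15, numpy 2.4.6, pandas 2.3.3, scipy 1.17.1 and matplotlib 3.10.9.

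Groups, labelled sex, dam and chip came from the labels. Replicates are separate animals, and littermates were treated as independent, with a random effect of litter as an alternative. Regions named with values are the end sites and their neighbours, the 5 members of highest mean height, the longest member, those called in all libraries, and the 5 of smallest p per comparison. The members, lists and tests were chosen with earlier results of these data known. The depth of coverage under the calling threshold is unknown, and reads were not used here. The alternatives are described under the dependence on processing. Of the regions most like the second end site, 1 is not reported here.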

Additional observations from a re-analysis of the deposited data

Results flagged for a closer look

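In 24 of 69 groups of 10 libraries, 1 library stood apart from the other 9, with a gap to the nearest of them, as a share of the whole range, above Dixon's critical value. Chance alone marks about 1 in 20 groups of smoothly spread values, and many of these groups hold mostly libraries at the floor, where 1 called peak stands apart by construction. At 7 of them a single library had a peak. These were the PF library with 0.906 and the PAE library with 0.787 at the first end site, the CON library with 0.935 and the PAE library with 0.901 at chr8:110511084-110511479, the PAE library with 0.817 at chr8:110562361-110563063, the PF library with 0.664 at chr8:110598225-110598622 and the PAE library with 1.43 at chr8:110756232-110757352.

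Where 2 or more libraries of the group had a peak, the tallest stood apart at the second end site, with 2.47 in PF and 1.57 in PAE, and at its inner neighbour, with 1.84 in PAE. The same held for 1.23 in PAE at chr8:110468968-110469498, 0.988 in CON and 1.29 in PAE at chr8:110569091-110569675, 1.37 in CON at chr8:110598225-110598622, 1.27 in PF and 1.29 in PAE at chr8:110645026-110645628, and 0.545 in PAE at chr8:110692514-110693135. At chr8:110590899-110591586 the PF library that stood apart was the lowest, at the floor of 0.438.

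Over the whole stretch 1 CON library with 49 members called and 1 PF library with 37 stood apart from their groups. For summed height these were a PF library at 41.9 and a PAE library at 44.4, and for covered length a PF library at 16.5 kb and a PAE library at 18.6 kb. All of them are on the chip with the most called regions.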

How the results depend on the processing

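No setting called a member between the end sites at an FDR of 0.05 in any of the 3 comparisons, including chip handling, covariates, floors, filters, scalings, q-value, overlap, litter as a random effect, called against uncalled libraries by Fisher's exact test, and each of 30 libraries left out. Fisher's test gave 0 members at an unadjusted p under 0.05 for PAE minus CON and for PAE minus PF, and 1 for PF minus CON. In that order, members lower by sign numbered 48 to 56, 47 to 53 and 38 to 46 with libraries left out, and 43, 40 and 35 of 63 without the chip with the most called regions, an alternative chosen after seeing the data. For PF versus CON they were 32 of 64 with peaks covering at least 50% of the region, which is no majority. The 5 members lower in PAE than in CON at an unadjusted p under 0.05 became 1 without CON replicate 2, 2 without PAE replicate 3 or 7, 3 without PAE replicate 1 or 5 or PF replicate 8 or 10, and 8 without PAE replicate 2. The 2 lower in PAE than in PF became 0 to 5 and the 3 lower in PF than in CON 1 to 5, by the library left out. The shares over all regions under these settings are not given here. The counts therefore show only how far the numbers moved, and cannot be set against the shares of the main fit. The 15 differences named with the smallest p kept their sign in every setting that moved them by over 1.5 times, and all 15 grew, to between -1.60 and 1.57, with uncalled libraries at 0 and a pseudocount of 0.1. With 50% overlap PAE minus PF was -0.30 at chr8:110622443-110623365 and -0.14 at chr8:110692514-110693135, and PF minus CON at chr8:110468968-110469498 was -0.25 and -0.23 with median ratio and quantile scaling.

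At the first end site, PAE minus CON was -1.14 and PF minus CON -1.43 with uncalled libraries at 0 and a pseudocount of 0.1. PAE minus PF was -0.020 without the chip term and -0.35 on the chip with 1 CON, 3 PF and 3 PAE libraries, where PF minus CON was 0.35. On the chip with 3 CON and 2 PF libraries PF minus CON was -1.07. At the second end site, PF minus CON was 0.014 with 50% overlap, 0.64 in libraries labelled female, 0.67, 0.44 and 0.29 on the chips with 4, 3 and 1 PF libraries and -1.59 on the chip with 3 CON and 2 PF libraries, and PAE minus PF was -1.56 on the chip with the most called regions. On the chip with 1 CON, 3 PF and 3 PAE libraries PF exceeded CON by 4 members called, 1.10 in summed height and 1.81 kb covered. With each library left out, the log2 differences for PAE minus CON, PAE minus PF and PF minus CON ranged from -0.56 to -0.29, 0.05 to 0.30 and -0.70 to -0.43 at the first end site and from -0.86 to -0.49, -0.51 to -0.27 and -0.39 to -0.15 at the second. In the same order, members called ranged from -7.84 to -3.41, -5.84 to -2.52 and -3.18 to 0.29, summed height from -10.8 to -5.50, -7.67 to -3.37 and -4.87 to -0.41, and kb covered from -3.79 to -1.71, -2.80 to -1.04 and -1.66 to -0.0042. The cause of these changes was not tested.

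No pairing between groups was possible because the labels give no replicate numbers shared between groups. Littermates carry opposite sex labels, and they were linked only by the random effect of litter in an alternative fit. Peaks limit what can be seen, since coverage under the calling threshold is set to the floor and a missing call is not a missing signal. Chips hold unequal numbers of each group. Labelled sex and sex chromosome peaks disagree in many libraries, among them most of those labelled female.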
